A study of Mus musculus with 2 samples.

Results

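Later granule neurons were studied in the neonatal mouse cerebellum, as granule lineage barcodes without a transcript of Cntn2 or Nhlh1, genes of the stage just after the last division. They were chosen by their own transcripts. A barcode belonged to them when it had 500 or more detected genes and no more than 10% of its UMIs from mitochondrial genes (unique molecular identifiers, the counted transcript molecules). It also had to hold at least 2 UMIs of Neurod1, 1 of Reln and 1 of Rbfox3, and 0 UMIs of Cntn2, Nhlh1, Atoh1, Eomes, Gad2, Lhx9, Mki67 and Top2a. The rule found 251 of the 16547 barcodes that passed the filter. Of these, 139 were among 8194 barcodes of the Cxcr4+/1013 library (mutant) and 112 among 8353 barcodes of the Cxcr4+/+ library (control). The 11 genes of the rule, and what follows from them, are given as description only.

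The study held 2 single-cell RNA libraries made with 10X Genomics 3' v3.1 chemistry from papain-dissociated cerebellum at postnatal day 1, microdissected to lobules III and IV. The mutant library came from Cxcr4+/1013 mice, which carry 1 copy of an allele encoding a CXCR4 chemokine receptor with a truncated tail, and the control library from Cxcr4+/+ mice. The strain label of both was B6.129S2-Cxcr4tm1.1Bala, whereas the wording of the dissection protocol gave the mutant as Cxcr4+/-; the genotype label was used. The sources used here do not give the number of animals pooled per library, and barcodes of both sexes were present in each. With 1 library per genotype there was no replicate and no test: every genotype difference is one between 2 libraries, and intervals cover counting error only.

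Granule neurons arise from Atoh1-expressing progenitors that divide in the external granule layer under Sonic hedgehog. After the last division they switch on Neurod1, and in the inner part of that layer they carry Cntn2, an axonal adhesion protein, and Nhlh1, a basic helix-loop-helix factor, while they extend parallel fibres. They then migrate inward along Bergmann glia, and in the internal layer they gain glutamate and GABA receptor subunits, ion channels and synaptic proteins. Rbfox3 encodes the neuronal splicing factor NeuN, and Reln encodes reelin, the secreted guidance protein that granule cells release. Meningeal CXCL12 keeps progenitors that express CXCR4 near the cerebellar surface, and the receptor is lost as the cells differentiate.

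The libraries held 9551 mutant and 9586 control barcodes, with 130429500 and 120003656 UMIs, and shared 25 barcode sequences. Of the later granule neurons, 1 in the mutant library carried a shared sequence. The later granule neurons had a median of 10437 UMIs in the mutant library (lowest 1512) and 11060 UMIs in the control library (lowest 1771). Their summed UMIs, the depth behind every level given here, were 1434124 and 1208017. Barcodes under 5000 UMIs made up 18% of the mutant (12.0% to 25.4%, exact Clopper-Pearson 95% interval) and 7.14% of the control later granule neurons (3.13% to 13.6%). Levels are UMIs summed over a population and given as counts per 1000000 of its summed UMIs (CPM). For comparison, Cntn2-positive barcodes (at least 2 Neurod1 UMIs and 1 Cntn2 UMI, with Atoh1, Eomes, Gad2, Lhx9, Mki67 and Top2a at 0) numbered 379 and 295. Atoh1-positive barcodes (at least 1 Atoh1 UMI, with Eomes, Gad2 and Lhx9 at 0) numbered 815 and 701.

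The positive part of the rule was broad and the requirement for zeros narrow. After Neurod1, Reln and Rbfox3, 2741 mutant and 2136 control barcodes remained, with median depths of 15457 and 14593 UMIs. Leaving out barcodes with Cntn2 cut these to 1204 and 1102. Barcodes that met every other part of the rule and failed by Cntn2 alone numbered 179 and 148, of which 85 and 71 held a single Cntn2 UMI. A count of 0 is not absence, and some later granule neurons may hold Cntn2 transcripts that were not counted. After thinning to 5000 UMIs, Cntn2 was still seen in 70.0% of mutant and 68.9% of control Cntn2-positive barcodes. All of these held Cntn2 before thinning by definition. The shares therefore do not measure how often Cntn2 was missed in later granule neurons. Eomes, a unipolar brush cell factor, alone left out 213 and 156. At the lower bounds, 14 mutant and 20 control later granule neurons had exactly 2 Neurod1 UMIs, and 39 and 53 barcodes failed only by having 1. With Reln, 7 and 4 stood at 1 UMI and 12 and 6 failed at 0. With Rbfox3, 21 and 19 stood at 1 UMI and 22 and 13 failed at 0.

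The 2 given markers that were not part of the rule, Neurod2 and Grin2b, were present. Neurod2, a factor of differentiated neurons, stood at 436 CPM in the mutant library and 421 CPM in the control library, against 373 CPM (mutant) and 376 CPM (control) in Cntn2-positive barcodes. With every barcode thinned to 5000 UMIs, which left 114 mutant and 104 control later granule neurons, it was detected in 87.7% and 88.5% of them; before thinning it was detected in 91.4% and 93.8%. Purkinje barcodes (Skor2, Car8 and Gad2 present), which should lack it, gave 13.5% and 10.1% after thinning, at median depths of 37947 and 37417 UMIs before it. Grin2b, the juvenile NMDA receptor subunit, stood at 736 CPM in the mutant library and 673 CPM in the control library, with 86.0% and 85.6% of thinned barcodes against 14.6% and 18.6% of Purkinje barcodes. Both genes were present in most barcodes of both libraries and above the level that the Purkinje barcodes gave, and both were common in other neurons too. After thinning, Neurod2 was seen in 79.8% and 84.1% of Cntn2-positive and 71.6% and 70.3% of interneuron barcodes of the mutant and control libraries, and Grin2b in 81.6% and 78.9% and in 64.5% and 63.5%.

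The broader granule signature was also present. Zic1, a zinc finger factor kept through the granule lineage, stood at 1238 CPM in the mutant library and 1031 CPM in the control library, and Pax6, another lineage factor, at 311 CPM in the mutant library and 272 CPM in the control library. Kcnd2, the A-type potassium channel of granule cells, stood at 3090.4 CPM in the mutant library and 2971 CPM in the control library. Cadps2, a secretion factor of granule cells, stood at 1634 CPM in the mutant library and 1589 CPM in the control library. After thinning, interneuron barcodes of the mutant and control libraries showed Zic1 in 84.1% and 82.8% and Kcnd2 in 49.8% and 48.8%. They showed Cadps2 in 17.8% and 22.9% and Pax6 in 9.90% and 9.31%. In Cntn2-positive barcodes the shares of these genes ran from 72.0% (Pax6, control) to 97.9% (Zic1, mutant). By contrast, some genes of the mature internal-layer granule neuron were at or near 0. Gabra6 and Grin2c, which encode receptor subunits of mature granule cells, each had 1 UMI in the mutant and 0 UMIs in the control library, where 0 allows at most 3 counts of 1208017. Gabrd had 1 UMI in each library, Cbln3 had 0 and 5 UMIs, and Cdh15 had 0 in both. Other receptor subunits were not absent. After thinning, Grin2a was detected in 14.0% of mutant and 7.69% of control later granule neurons, against 4.45% and 3.81% of Cntn2-positive barcodes. Gabrb2 was detected in 14.9% and 11.5%, against 4.45% and 6.23%. A granule signature was thus present with Gabra6, Grin2c and Gabrd at no more than 1 UMI per library, and "later" holds only in relation to the Cntn2 stage.

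**Figure D1:**
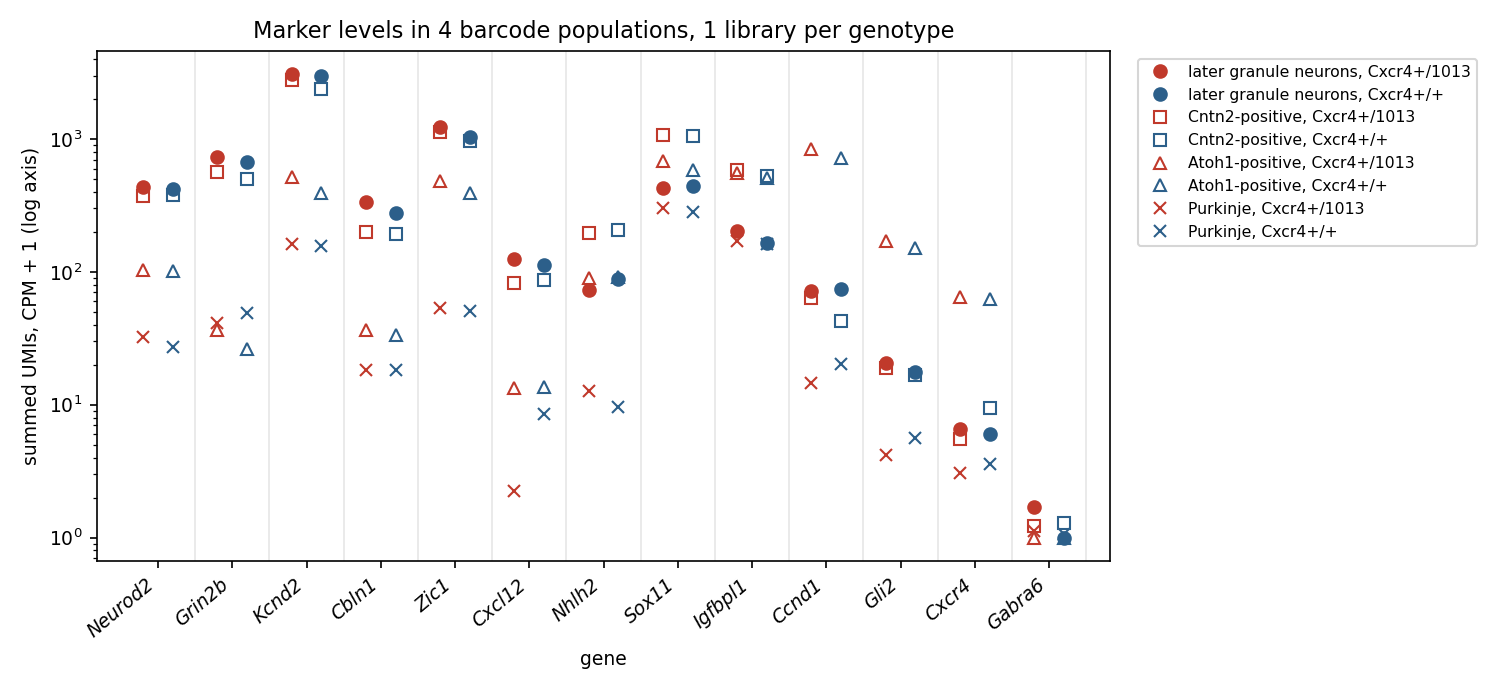
Summed level of 13 genes (x axis) as CPM + 1 on a log axis in later granule neurons (filled circles), Cntn2-positive (squares), Atoh1-positive (triangles) and Purkinje barcodes (crosses), with the mutant library in red on the left and the control library in blue on the right of each gene. Neurod2, Grin2b, Kcnd2 and Zic1 are high in later granule neurons of both libraries, Sox11 and Igfbpl1 lie below their Cntn2-positive level, Cxcr4 and Gli2 lie far below their Atoh1-positive level, and Gabra6 is at or near 0.

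Later granule neurons were 1.70% of mutant barcodes (1.43% to 2.0%) and 1.34% of control barcodes (1.11% to 1.61%). The difference was 0.356 percentage points (-0.0254 to 0.740), within counting error. As a share of the granule lineage, that is later, Cntn2-positive and Atoh1-positive barcodes together, they were 10.4% in the mutant library (139 of 1333, 8.84% to 12.2%) and 10.1% in the control library (112 of 1108, 8.4% to 12.0%). That difference was 0.319 points (-2.18 to 2.78). It turned to -0.0533 points with at most 5% mitochondrial UMIs, -0.474 with at least 5000 UMIs per barcode, -1.12 with Neurod1 taken from 1 UMI and -0.0858 among female barcodes. Neither share differed beyond counting error at this depth, and the lineage share had no stable direction. Cntn2-positive barcodes, for comparison, were 4.63% and 3.53% of barcodes, a difference of 1.09 points (0.483 to 1.71). Of these Cntn2-positive barcodes, 42 mutant and 6 control had fewer than 5000 UMIs. The lower quartile of depth over all barcodes that passed the filter was 8821 UMIs in the mutant and 6102 UMIs in the control library. The part of depth in this difference was not tested. Sex was read from Xist and Y-linked genes. Later granule neurons were 1.65% of female mutant and 1.51% of female control barcodes (57 and 58 barcodes), and 1.94% of male mutant and 1.65% of male control barcodes (68 and 47).

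Marker transcripts of other cell classes had low summed levels in the later granule neurons. Some came from single barcodes and others were spread over many. Summed Purkinje markers (9 genes, among which the class-defining Skor2 had 0 mutant and 1 control UMIs) stood at 584 and 585 CPM, against 17438 and 16444 CPM in Purkinje barcodes. At least 3 of the 9 were found in 57 of 139 mutant and 48 of 112 control later granule neurons. The 12 astroglial markers summed to 446 CPM in the mutant and 567 CPM in the control library, where 1 barcode held 38.1% of their UMIs. At least 3 of them were found in 24 mutant and 30 control barcodes. Interneuron markers summed to 54.4 and 103 CPM, and unipolar brush cell markers to 159 and 142 CPM. Markers of other excitatory neurons summed to 169 and 119 CPM, with at least 3 found in 10 mutant and 3 control barcodes. Glutamatergic nuclear or midbrain markers summed to 83.7 and 63.7 CPM. The 6 fibroblast markers summed to 97.6 CPM in the mutant library and 6.62 CPM in the control library, and all 140 mutant UMIs lay in 1 barcode. Without that barcode, 324 of the 344 genes counted below as higher in the mutant library were still so. Doublet scoring with Scrublet placed 6 mutant and 5 control later granule neurons among the highest-scoring barcodes. The part of these transcripts in the genotype differences beyond that 1 barcode was not tested.

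Set against the Cntn2-positive barcodes, later granule neurons of both libraries were higher for a minority of the listed receptor, channel and late granule neuron genes, and lower for a minority of the lineage factors and early postmitotic genes. Of 8677 genes with at least 50 UMIs over both populations in each library, 367 (4.23%) were higher in later granule neurons of both libraries by 1.5-fold or more and 240 (2.77%) were lower by as much. The rule set Cntn2 and Nhlh1 to 0 and required Reln and Rbfox3 in later granule neurons. Cntn2-positive barcodes had to hold Cntn2, with no condition on Nhlh1, Reln or Rbfox3. These values therefore describe what the choice sorted and carry no test. The counts were 163 and 156 among male barcodes and 242 and 123 after thinning to 5000 UMIs before the rule was applied.

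By the interval bound nearest to 0, the 10 leading genes of the higher side were, in order, Thsd7b, Lrrtm4, Trpm3, Ntm, Ntrk3, Syt4, Dnm3, Csmd1, Slit3 and Svep1. Lrrtm4, a synaptic adhesion protein that binds neurexins and heparan sulphate proteoglycans, stood at 808 CPM in the mutant library and 682 CPM in the control library, against 186 CPM (mutant) and 204 CPM (control) in Cntn2-positive barcodes. Its log2 ratio of later to Cntn2-positive barcodes was 2.12 in the mutant and 1.74 in the control library. Syt4, a vesicle synaptotagmin, stood at 495 CPM in the mutant library and 429.6 CPM in the control library, against 132 CPM (mutant) and 147 CPM (control), and Slit3, a secreted guidance ligand of Robo receptors, at 282 CPM in the mutant library and 262 CPM in the control library, against 74.2 CPM (mutant) and 89.4 CPM (control). These 3 were also low in Atoh1-positive barcodes, where Lrrtm4 stood at 31.1 and 18.7 CPM and Slit3 at 4.74 and 5.63 CPM. Thsd7b and Trpm3 were instead higher there than in Cntn2-positive barcodes, at 39.9 and 40.5 CPM and at 44.8 and 42.6 CPM. The other leading genes were lower there than in Cntn2-positive barcodes. Several of the 10 were found in a minority of later granule neurons. At least 1 UMI of Svep1 was found in 19.4% of mutant and 17.9% of control barcodes. The shares were 27.3% and 25% for Thsd7b, 25.9% and 25.9% for Ntrk3, and 29.5% and 31.3% for Trpm3. Dnm3, a neuronal dynamin, had log2 ratios of 1.60 in the mutant and 1.56 in the control library, and Ntrk3, the neurotrophin-3 receptor, of 1.92 in the mutant and 1.98 in the control library. The others had log2 ratios as follows: Thsd7b (2.47 in the mutant and 2.51 in the control library), the cation channel Trpm3 (2.49 in the mutant and 1.88 in the control library), the adhesion protein Ntm (1.52 in the mutant and 1.56 in the control library), the complement regulator Csmd1 (1.46 in the mutant and 1.52 in the control library) and Svep1 (3.05 in the mutant and 2.09 in the control library).

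On the lower side the 10 leading genes were, in order, Sept4, Rgmb, Clic1, Adamtsl3, Igfbpl1, Ebf3, Sox11, Plppr1, Gamt and Cog7. Sox11, a factor of immature neurons, stood at 425 CPM in the mutant library and 444 CPM in the control library, against 1074 CPM (mutant) and 1044 CPM (control) in Cntn2-positive barcodes. Igfbpl1, found in newly postmitotic granule cells, stood at 204 CPM in the mutant library and 163 CPM in the control library, against 585 CPM (mutant) and 523 CPM (control). Ebf3, a neuronal differentiation factor, stood at 199 CPM in the mutant library and 169 CPM in the control library, against 496 CPM (mutant) and 430.3 CPM (control). All 3 were lower in later granule neurons of either library, and all 3 were also higher in Atoh1-positive than in later granule neurons. The log2 ratios of the others were those of the septin Sept4 (-2.25 in the mutant and -2.21 in the control library), the bone morphogenetic protein co-receptor Rgmb (-2.07 in the mutant and -2.28 in the control library), Clic1 (-1.73 in the mutant and -1.82 in the control library), Adamtsl3 (-1.81 in the mutant and -2.07 in the control library), Plppr1 (-1.30 in the mutant and -1.28 in the control library), the creatine synthesis enzyme Gamt (-1.91 in the mutant and -1.66 in the control library) and the Golgi component Cog7 (-1.34 in the mutant and -1.88 in the control library).

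**Figure D2:**
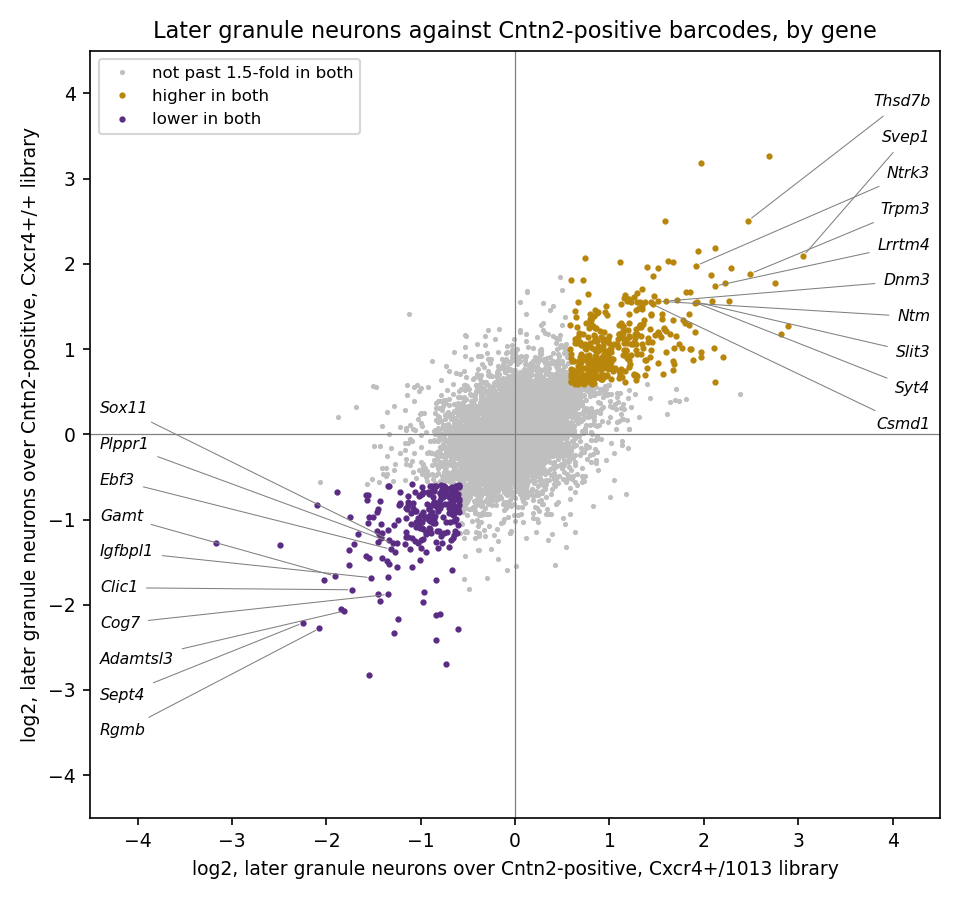
Each point is 1 of 8677 genes, placed by its log2 ratio of later granule neurons over Cntn2-positive barcodes in the mutant library (x axis) and in the control library (y axis). Genes at least 1.5-fold higher in both libraries (367) are gold and genes at least 1.5-fold lower in both (240) are purple, with the 10 leading genes of each side named.

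The counts of the gene lists are to be read against 4.23% higher and 2.77% lower over all 8677 genes, whose median log2 ratio was -0.01 in the mutant and 0.02 in the control library. Of 33 measured glutamate and GABA receptor and postsynaptic genes, 11 were at least 1.5-fold higher in later granule neurons of both libraries and 0 lower (median 0.38 in the mutant and 0.42 in the control library). These included the metabotropic receptor Grm5 (204 CPM (mutant) and 212 CPM (control), against 69.4 CPM (mutant) and 83.3 CPM (control) in Cntn2-positive barcodes), the obligatory NMDA subunit Grin1 (139 CPM (mutant) and 113 CPM (control), against 62.3 CPM (mutant) and 56.8 CPM (control)), Gria3, Grik1, Grik3, Gabra3, Gabrb1, Gabrb2, Grin2a and the scaffold gene Shank1. Of 29 voltage-gated channel genes 8 were higher and 0 lower (median 0.15 in the mutant and 0.33 in the control library). They were the sodium channels Scn1a, Scn2a and Scn3a, the potassium channel Kcnq5 (929 CPM (mutant) and 791 CPM (control), against 545 CPM (mutant) and 444 CPM (control)), the calcium channel subunits Cacna2d2, Cacna2d3 and Cacnb2, and the leak channel Nalcn. Of 30 late granule neuron genes 9 were higher and 0 lower (median 0.45 in the mutant and 0.34 in the control library), among them Fgf14 (359 CPM (mutant) and 282 CPM (control), against 138 CPM (mutant) and 154 CPM (control)) and Pcp4, which is also on the Purkinje list (204 CPM (mutant) and 234 CPM (control), against 106 CPM (mutant) and 131 CPM (control)).

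Among 34 presynaptic genes 6 were higher and 1, Syt11, lower (median 0.27 in the mutant and 0.28 in the control library). The vesicle calcium sensor Syt1 stood at 949 CPM in the mutant library and 871 CPM in the control library, against 542 CPM (mutant) and 529.9 CPM (control) in Cntn2-positive barcodes, and Cplx2, a complexin, at 559 CPM in the mutant library and 641 CPM in the control library, against 337 CPM (mutant) and 375 CPM (control). Of 38 migration and axon guidance genes 7 were higher and 3 lower (median -0.05 in the mutant and 0.01 in the control library). The higher ones included both reelin receptors, Vldlr (log2 1.17 in the mutant and 0.98 in the control library) and Lrp8 (1.32 in the mutant and 1.26 in the control library), which were also the 2 higher genes among 10 of the reelin pathway. The netrin receptor Dcc was lower, at 832 CPM in the mutant library and 949 CPM in the control library, against 2486 CPM (mutant) and 1549.8 CPM (control), whereas the netrin receptor Unc5d was higher, at 178 CPM (mutant) and 121 CPM (control), against 55.6 CPM (mutant) and 66.4 CPM (control).

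Of 29 measured lineage transcription factors 7 were lower and 1, the nuclear receptor Nr4a3, higher (median -0.27 in the mutant and -0.08 in the control library); the 7 were Barhl2, Insm1, Nhlh2, Sox11, Myt1, St18 and Klf7. Nhlh2, the close relative of the rule's Nhlh1, was not part of the rule and stood at 72.5 CPM in the mutant library and 87.7 CPM in the control library, against 194 CPM (mutant) and 204 CPM (control). Of 22 early postmitotic genes 17 did not pass in both libraries, 0 were higher and 5 lower (median -0.27 in the mutant and -0.33 in the control library), namely Nhlh2, Insm1, Sox11, Elavl2 and Igfbpl1. The structural genes of that list differed less: Dcx, the microtubule protein of migrating neurons, stood at 957 CPM (mutant) and 880.0 CPM (control), against 1061 CPM (mutant) and 981 CPM (control), and Tubb3 at 1626 CPM (mutant) and 1694 CPM (control), against 1849.5 CPM (mutant) and 2100.3 CPM (control). Of 13 progenitor genes 0 were higher and 1, Mfap4, lower. None of 80 measured cytosolic ribosomal protein genes passed 1.5-fold in both libraries.

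The immediate early gene Fos stood at 372 CPM in the mutant library and 293 CPM in the control library in later granule neurons, against 103 CPM (mutant) and 147 CPM (control) in Cntn2-positive barcodes. Fos was 1 of 2 genes higher among 17 immediate early and stress genes; the other was the cell cycle inhibitor Cdkn1a (204 CPM (mutant) and 239 CPM (control), against 119.9 CPM (mutant) and 139 CPM (control)). Among noncoding transcripts, Meg3, an imprinted long noncoding RNA of neurons, stood at 1369 CPM in the mutant library and 1217 CPM in the control library, against 477 CPM (mutant) and 529 CPM (control), and Miat was lower.

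Promoter sequence is shown for 3 of these genes, because basic helix-loop-helix factors such as Neurod1 bind E-boxes and because Meg3 alone among the leading genes held a cyclic AMP response element. The windows run from 250 bases before to 50 bases after the annotated start, from RefSeq (GRCm38.p6), on the strand of the gene, with motif matches in capitals. The motifs were the E-box CAGATG, which reads CATCTG on the other strand, the cyclic AMP response element TGACGTCA and the AP-1 site TGANTCA, each searched on both strands; no match of one contains another. Dnm3 (chr1:162477985-162478284, minus strand) was higher and Nhlh2 (chr3:102009895-102010194, plus strand) lower than in Cntn2-positive barcodes, and each holds 1 E-box; Meg3 (chr12:109540746-109541045, plus strand) holds 1 cyclic AMP response element.
Dnm3: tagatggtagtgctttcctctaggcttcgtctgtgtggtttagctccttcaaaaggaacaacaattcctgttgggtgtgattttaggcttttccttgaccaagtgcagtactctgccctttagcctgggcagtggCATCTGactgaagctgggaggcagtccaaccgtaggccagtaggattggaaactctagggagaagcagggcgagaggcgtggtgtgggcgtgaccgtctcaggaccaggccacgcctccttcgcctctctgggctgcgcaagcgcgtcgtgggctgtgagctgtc
Nhlh2: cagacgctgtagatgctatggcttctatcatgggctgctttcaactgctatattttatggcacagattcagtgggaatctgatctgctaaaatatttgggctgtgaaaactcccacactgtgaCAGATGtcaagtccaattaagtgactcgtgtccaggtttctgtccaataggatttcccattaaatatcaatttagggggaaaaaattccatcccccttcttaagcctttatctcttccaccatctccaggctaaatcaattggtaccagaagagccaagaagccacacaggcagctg
Meg3: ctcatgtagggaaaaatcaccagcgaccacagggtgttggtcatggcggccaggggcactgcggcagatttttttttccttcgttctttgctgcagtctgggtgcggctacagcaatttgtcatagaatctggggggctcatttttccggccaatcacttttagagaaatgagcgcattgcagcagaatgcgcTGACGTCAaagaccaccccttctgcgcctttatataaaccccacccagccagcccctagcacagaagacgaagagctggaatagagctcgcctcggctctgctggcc
The E-box stood in 17.2% of all 32851 mouse windows, the cyclic AMP response element in 1.79% and the AP-1 site in 7.81%. Of the 10 genes that led the higher side, 7 had windows and 1, Dnm3, held an E-box; of the 10 that led the lower side, 8 had windows and 0 did. A match describes letters in a window and not a binding site.

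Later granule neurons were not uniform. At a fixed depth of 5000 UMIs the median gene had a variance-to-mean ratio of 1.07 among mutant and 1.06 among control barcodes, where random sampling alone gives 1. The 10 most variable genes were Malat1 (21.8 and 17.0 in mutant and control barcodes), Tmsb4x (19.5 and 15.6), Nrxn3 (12.6 and 10.8), Galntl6 (14.2 and 9.23), Meg3 (9.14 and 10.7), Ntm (10.5 and 9.04), Lrrtm4 (15.6 and 8.58), Cntnap2 (8.98 and 8.38), Ptn (10.1 and 8.28) and Lsamp (11 and 8.04). Lrrtm4 shows the pattern: of thinned barcodes 41.2% in the mutant and 47.1% in the control library had none, while the highest held 65 and 26 UMIs. Galntl6, a glycosyltransferase gene, had none in 64.0% and 53.8% and reached 33 and 31 UMIs. Of the 10, Nrxn3, Ntm, Lrrtm4, Cntnap2 and Lsamp encode neuronal surface proteins and Ptn a secreted growth factor.

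A minority of the barcodes that met the rule carried progenitor transcripts. They stood out by the netrin receptor Dcc, and the ranges of Dcc UMIs used here were set after its values were seen, so what follows is description. Dcc had 0 UMIs in 54 mutant (38.8%) and 45 control (40.2%) later granule neurons, 1 to 19 UMIs in 70 (50.4%) and 56 (50%), and 20 or more in 15 (10.8%, 6.17% to 17.2%) and 11 (9.82%, 5.01% to 16.9%). Few lay near the upper bound, with 4 and 2 barcodes within 5 UMIs of it. In the barcodes with 20 or more, the cyclins Ccnd2 and Ccnd1, which drive progenitor division, stood at 584 and 853 CPM and 431 and 457 CPM in the mutant and control libraries. In barcodes without Dcc they stood at 23.3 and 14.0 CPM and 19.7 and 23.3 CPM. Gli2, a Sonic hedgehog effector, stood at 130.3 and 112 CPM against 3.59 and 0 CPM, and the replication clamp Pcna at 181 and 292 CPM against 37.6 and 32.7 CPM. These 15 and 11 barcodes thus met the rule, Mki67 and Top2a at 0 included, while carrying cyclin D and hedgehog pathway transcripts in sum. For the group as a whole the label did not hold, but the sums do not show it for each barcode. Among all later granule neurons, 12 mutant and 8 control barcodes held at least 3 of the 5 progenitor markers outside the rule.

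The same barcodes were low in what marked the rest. Grin2b stood at 221 and 82.4 CPM with 20 or more Dcc UMIs, against 889 and 821 CPM without Dcc, Neurod2 at 193 and 195 CPM against 511 and 476 CPM, and Syt4 at 68.0 and 7.49 CPM against 543 and 506 CPM. Cxcl12, the ligand of CXCR4, stood at 17.0 and 22.5 CPM against 186 and 154 CPM. Median depth did not separate the ranges as widely, with 11306 and 12032 UMIs against 9574.5 and 9942 UMIs. Without the 15 and 11 barcodes, 430 genes were higher and 395 lower than in Cntn2-positive barcodes, against 367 and 240 with them. The genotype counts given below were 334 and 231 without them, against 344 and 244, and 242 of the 344 higher and 149 of the 244 lower genes were still counted so.

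**Figure D3:**
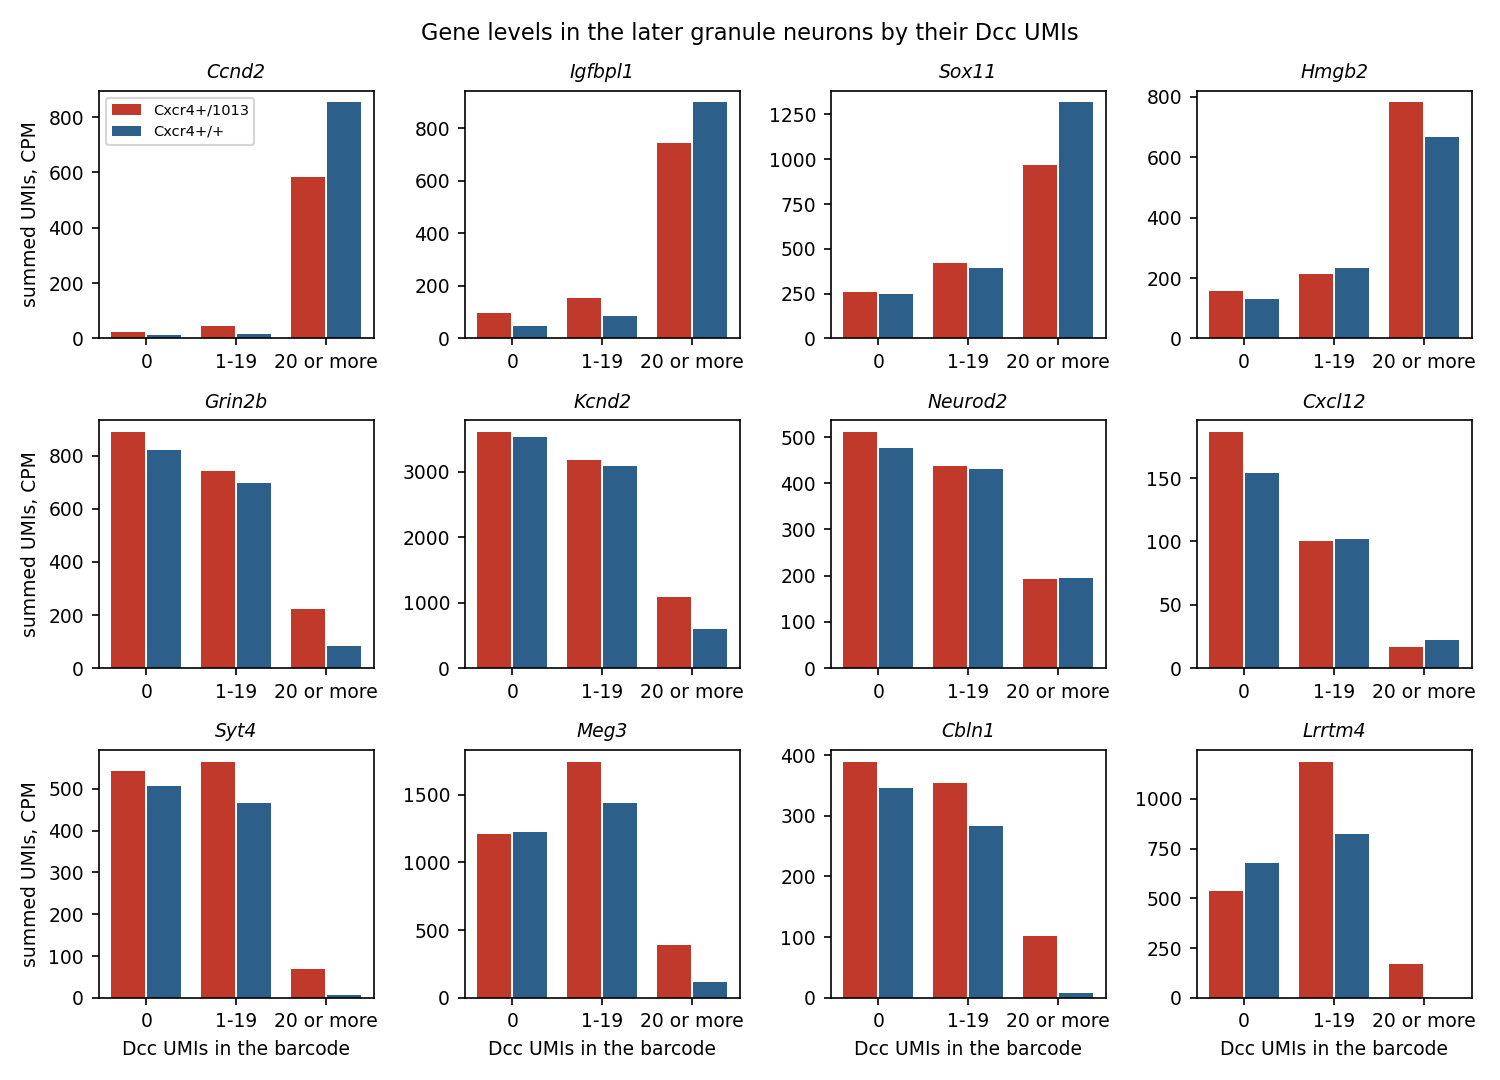
Summed level (CPM, y axis, bars from 0) of 12 genes in later granule neurons with 0, 1 to 19, and 20 or more Dcc UMIs (x axis), with the mutant library in red on the left and the control library in blue on the right. Ccnd2, Igfbpl1, Sox11 and Hmgb2 are highest and Grin2b, Kcnd2, Neurod2, Cxcl12, Syt4, Meg3 and Cbln1 lowest in the 15 mutant and 11 control barcodes with 20 or more Dcc UMIs.

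Another minority carried Trpm3, and in sum also held high levels of Lrrtm4, Galntl6 and Meg3. Trpm3 had 5 or more UMIs in 16 mutant (11.5%, 6.72% to 18%) and 8 control (7.14%, 3.13% to 13.6%) barcodes, 1 to 4 in 25 and 27, and 0 in 98 and 77; these ranges too were set after the values were seen, and 32 and 33 barcodes lay within 5 UMIs of the upper bound. With 5 or more Trpm3 UMIs, Lrrtm4 stood at 2642 and 3235 CPM, against 377 and 340.1 CPM without Trpm3. Galntl6 stood at 1831 and 1314 CPM against 149 and 240.4 CPM, Meg3 at 3560.1 and 4309 CPM against 826 and 853 CPM, and Fgf14, a regulator of sodium channels, at 1054 and 1145 CPM against 206 and 189 CPM. Igfbpl1 stood at 48.5 and 0 CPM against 236 and 181 CPM. These genes were also present in other neurons: Purkinje barcodes held 143 and 172 CPM of Trpm3, 592 and 593 of Lrrtm4, 376 and 472 of Galntl6 and 2750.5 and 2643 of Meg3, and interneuron barcodes 223 and 209 CPM of Trpm3 and 2263 and 2477 of Meg3. The barcodes with 5 or more Trpm3 UMIs were deeper, with medians of 14859.5 and 13152 UMIs against 9574.5 and 10588, and the part of depth in their selection was not tested.

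The ligand CXCL12 and its receptor, which the mutant allele alters, were described across the lineage. Cxcl12 stood at 123 CPM in the mutant library and 112 CPM in the control library in later granule neurons, at 80.9 CPM (mutant) and 85.9 CPM (control) in Cntn2-positive barcodes and at 12.3 CPM (mutant) and 12.6 CPM (control) in Atoh1-positive barcodes, and the log2 ratio over Cntn2-positive barcodes was 0.61 (0.34 to 0.87) in the mutant and 0.38 (0.07 to 0.68) in the control library. After thinning it was detected in 32.5% and 44.2% of later granule neurons, against 0% and 2.01% of Purkinje barcodes. Its genotype log2 ratio was 0.14 (-0.19 to 0.48), within counting error. Cxcr4 had 8 mutant and 6 control UMIs, 5.58 and 4.97 CPM, against 63.4 CPM (mutant) and 61.5 CPM (control) in Atoh1-positive barcodes, and Ackr3, the scavenger receptor for CXCL12, had 5 and 2 UMIs. The mutation lies in the coding sequence and these 3' counts cannot show which allele a transcript came from. Of 15 measured genes of the axis, including G protein subunits, arrestins and receptor kinases, 0 passed 1.5-fold between genotypes.

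Between genotypes, few genes passed 1.5-fold in later granule neurons, over all genes as in the listed programmes. Genes were compared when the 2 libraries together held 50 or more UMIs, which left 7259; 344 of these (4.74%) were higher in the mutant library by 1.5-fold or more, and 244 (3.36%) were lower by as much. The interval lay past 0 for 248 of the higher and 151 of the lower genes. These counts moved with the depth asked of a gene, to 753 and 671 (7.63% and 6.80%) with at least 20 UMIs. With at least 100 UMIs they were 138 and 59 (2.79% and 1.19%). With barcodes thinned to 5000 UMIs before the rule, 119 of the 344 higher and 38 of the 244 lower genes were still counted so. The median of all genes was 0.01 on the log2 scale, and higher genes were 58.5% of those past 1.5-fold, or 60.2% with TMM factors and 63.9% with DESeq2 size factors.

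Jund, which encodes a subunit of the AP-1 transcription factor, led the genes higher in the mutant library. It stood at 349 CPM in the mutant library and 89.4 CPM in the control library (501 mutant and 108 control UMIs), a log2 ratio of 1.97 (1.66 to 2.28), and at least 1 UMI was found in 84.9% and 58.0% of barcodes. The ratio was 1.71 in Cntn2-positive, 1.75 in Atoh1-positive and 1.66 in Purkinje barcodes, so the mutant level was above the control level in those populations too. Ptms, a parathymosin gene, stood at 839.5 CPM in the mutant library and 428 CPM in the control library, a ratio of 0.97 (0.82 to 1.12), against 0.83, 0.87 and 1.01 in those 3 populations. Mtch1, a mitochondrial carrier homologue, stood at 223 CPM in the mutant library and 103 CPM in the control library, a ratio of 1.12 (0.82 to 1.43), against 1.03, 1.17 and 0.82. The other 7 leading genes were each higher in all 4 populations, which was read for the 10 leading genes and not for the 344: Prr7, a postsynaptic membrane protein (2.13 (1.14 to 3.27) in later granule neurons), the sialic acid activating enzyme Cmas (1.74 (1.11 to 2.42)), the small GTPase Arf6 (1.88 (1.0 to 2.88)), Tmem158 (1.66 (0.93 to 2.45)), the phosphatase Pdxp (1.37 (0.87 to 1.90)), the transcriptional coregulator Cited2 (1.26 (0.85 to 1.69)) and the linker histone H1fx (1.51 (0.84 to 2.23)). In Purkinje barcodes their log2 ratios ran from 0.86 for Cmas to 1.90 for Tmem158. The populations come from the same 2 libraries, so these are values of 1 pair of libraries read in different cells, and a difference between the preparations and one between the genotypes cannot be told apart. All 10 were also higher within female and within male barcodes, with 2.03 and 1.80 for Jund.

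Among the genes lower in the mutant library, Mgat4c, which encodes a glycosyltransferase, had 9 mutant and 57 control UMIs, 6.28 and 47.2 CPM, a log2 ratio of -2.91 (-4.11 to -1.89), but it was found in only 3.60% and 13.4% of barcodes, a single barcode held 44.4% of its mutant and 24.6% of its control UMIs, and it turned to 0.71 when barcodes were thinned before the rule was applied. Gart, a purine synthesis enzyme, stood at 14.6 CPM in the mutant library and 40.6 CPM in the control library, a ratio of -1.47 (-2.28 to -0.71), against -0.22 in Cntn2-positive and 0.04 in Atoh1-positive barcodes. Lars2, the mitochondrial leucyl-tRNA synthetase, stood at 37.7 CPM in the mutant library and 73.7 CPM in the control library, a ratio of -0.97 (-1.48 to -0.46), against -0.71 and -0.18. The snoRNA host gene Snhg20 (-1.25 (-2.0 to -0.53)), LTO1 (-1.25 (-2.12 to -0.42)) and Slf1, which recruits a DNA repair complex (-0.76 (-1.11 to -0.41)), were lower in later granule neurons and not in Cntn2-positive barcodes, where their ratios were 0.26, 0.28 and 0.18; the difference between populations was not tested. Fastk (-1.33 (-2.22 to -0.48)) and the copper chaperone Ccs (-1.29 (-2.22 to -0.41)) were also lower in Cntn2-positive barcodes, with -0.77 (-1.24 to -0.31) and -1.08 (-1.71 to -0.46), and Ccs had -0.43 in Atoh1-positive and -0.30 in Purkinje barcodes. The rest were Armc8 (-0.78 (-1.17 to -0.41), against -0.11 in Cntn2-positive barcodes) and Lancl1 (-0.91 (-1.44 to -0.40), against -0.08). Gart, Snhg20, Fastk, LTO1 and Ccs rested on 17 to 25 mutant UMIs each.

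**Figure D4:**
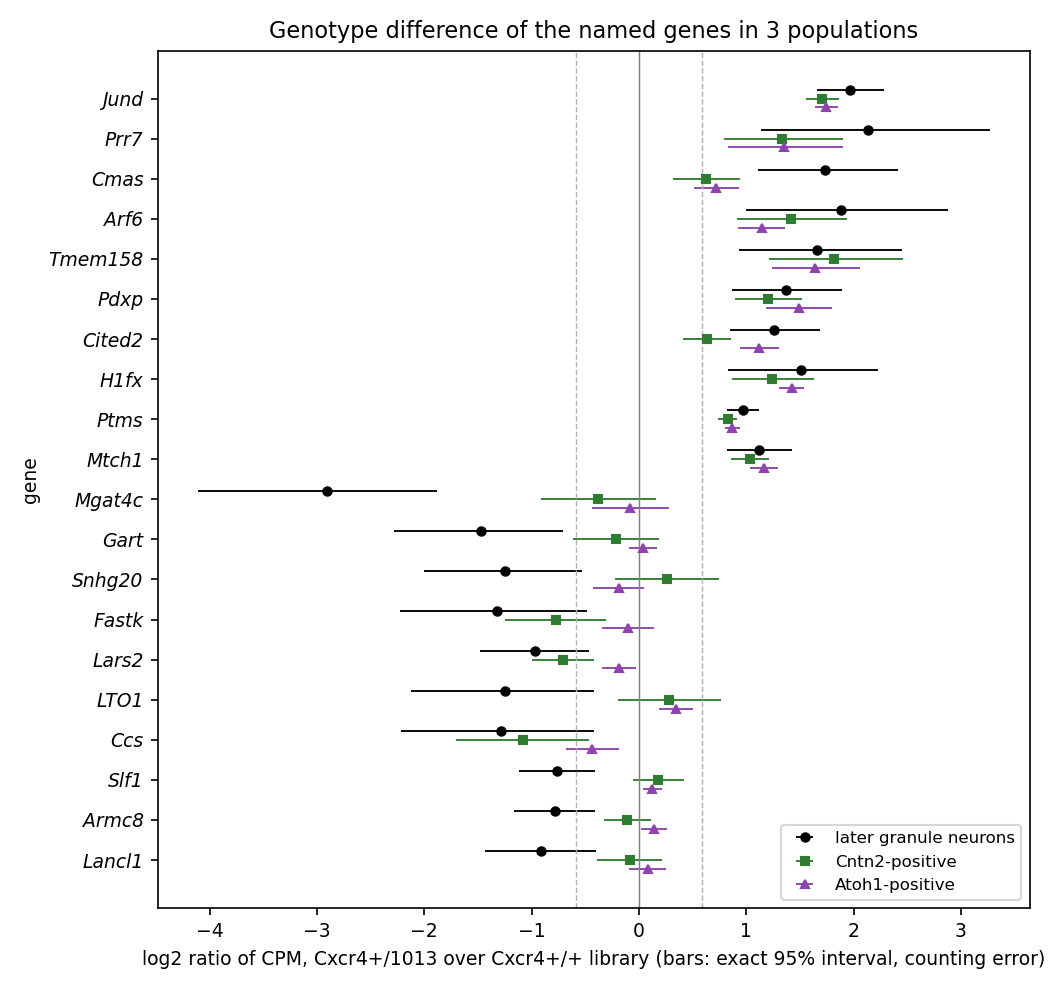
Log2 ratio of CPM, mutant over control library (x axis), for the 10 genes higher and 10 lower in the mutant later granule neurons (y axis), shown for later granule neurons (black circles), Cntn2-positive (green squares) and Atoh1-positive barcodes (purple triangles), with exact 95% intervals for counting error and dashed lines at 1.5-fold. The 10 higher genes lie to the right of 0 in all 3 populations. Of the lower genes, Lars2, Fastk and Ccs lie left of 0 in Cntn2-positive barcodes too, with intervals that leave out 0. Mgat4c, Gart, Armc8 and Lancl1 lie left of 0 there and Snhg20, LTO1 and Slf1 right of it, with intervals that include 0.

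Few listed granule genes passed 1.5-fold between genotypes, as was so for all genes, and in most lists more intervals lay above 0 than below. The interval lay above 0 for 7 and below 0 for 0 of the lineage factors, for 8 and 2 of the late granule neuron genes, 10 and 2 of the guidance genes, 9 and 2 of the presynaptic genes and 8 and 1 of the channel genes, against 599 and 473 of the 7256 genes outside the rule. These counts were 5 and 2 for early postmitotic genes, 6 and 2 for receptor and postsynaptic genes and 2 and 0 for the CXCL12 axis. AP-1 genes gave 3 and 0, and immediate early and stress genes 4 and 2. The reelin pathway gave 1 and 1, noncoding transcripts 2 and 2 and progenitor genes 0 and 1. Summed levels of some lists were also higher in the mutant library in other populations. All listed lineage factors summed to 15128 (mutant) and 13722 CPM (control) in Cntn2-positive and 11407 and 9793 CPM in Atoh1-positive barcodes. In interneuron barcodes they summed to 10186 and 8820 CPM. These sums did not leave out genes of the rule, whereas the interval counts did. Values that chose the populations may therefore be part of the sums, which are description only. Channel genes summed to 8835 and 7523 CPM in Cntn2-positive barcodes. Whether the tilt differed between populations was not tested. Of 28 measured lineage transcription factors 1 was higher and 0 lower at 1.5-fold, with a median log2 ratio of 0.11. It was Zic2 (211 CPM (mutant) and 128 CPM (control), 0.71 (0.43 to 1.0)). Of 22 early postmitotic genes 0 passed in either direction (median 0.02). Of 12 progenitor genes 0 were higher and 1, the helicase subunit Mcm6, lower (-0.79 (-1.61 to -0.0014)). Among 30 late granule neuron genes Chn2, a Rac-regulating chimaerin (165 CPM (mutant) and 102 CPM (control), 0.69 (0.37 to 1.02)), and Ablim3 (0.86 (0.23 to 1.53)) were higher and Calb2, the calcium buffer calretinin, lower (-0.75 (-1.57 to 0.05)), with a median of 0.10. All genes tested gave 4.74% higher and 3.36% lower. Whether the lists differed from genes of like depth was not tested.

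In the synaptic, channel and guidance lists, too, few genes passed, as among all genes. Of 34 presynaptic genes 1 was higher, the vesicle phosphoprotein gene Syn2 (245 CPM (mutant) and 159 CPM (control), 0.63 (0.37 to 0.89)), and 0 lower. Among 32 receptor and postsynaptic genes the metabotropic receptor Grm8 was higher (37.0 CPM (mutant) and 18.2 CPM (control), 1.02 (0.28 to 1.81)) and the scaffold gene Shank2 lower (-0.59 (-0.95 to -0.23)), and Grin2b had a ratio of 0.13 (-0.0049 to 0.26). Of 29 channel genes 0 were higher and 1, the potassium channel Kcna1, lower (36.3 CPM (mutant) and 63.7 CPM (control), -0.81 (-1.35 to -0.29)). Of 36 guidance genes 0 were higher and 1 lower, the reelin adaptor Dab1 (13.9 CPM (mutant) and 27.3 CPM (control), -0.97 (-1.85 to -0.13)), also the 1 gene of 10 in the reelin pathway. Trpm3, chosen above for its place among the later granule neurons, stood at 231 CPM in the mutant library and 115 CPM in the control library, a genotype ratio of 1.0 (0.71 to 1.30). It was found in similar shares of barcodes, 29.5% in the mutant and 31.3% in the control library. A single barcode held 16.3% of its mutant and 14.4% of its control UMIs. Barcodes with 5 or more Trpm3 UMIs, the deeper ones described above, numbered 16 in the mutant and 8 in the control library.

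AP-1 genes, measured over 5 members, had a median log2 ratio of 0.47, with Jund and Fosb (50.2 CPM (mutant) and 20.7 CPM (control), 1.28 (0.60 to 2.0)) past 1.5-fold, Fos at 0.35 (0.15 to 0.54) and Jun at -0.30 (-0.64 to 0.04). Jun, with an interval that includes 0, lay on the other side of 0 from Jund and Fosb. Of 18 immediate early and stress genes Fosb was higher and the chaperone gene Dnajb1 lower (-0.73 (-1.46 to -0.02)), with a median of 0.07. Of 9 noncoding transcripts Gm26917 was lower (-0.83 (-1.46 to -0.22)) and 0 were higher; Malat1 stood at 15548 CPM in the mutant library and 13141 CPM in the control library, a ratio of 0.24 (0.21 to 0.27). Cytosolic ribosomal protein genes differed little but mostly in one direction: 0 of 80 passed 1.5-fold, the median was -0.19, and the interval lay above 0 for 8 and below 0 for 50, against the 599 and 473 of all genes. Their summed level was also lower in the mutant library in other populations, at 57602 and 63543 CPM in later granule neurons, 65292 and 74030.1 in Cntn2-positive, 131242 and 144033 in Atoh1-positive, 67286 and 70522 in Purkinje and 63389.5 and 71252 in interneuron barcodes of the mutant and control libraries. Of 88 nuclear genes of the respiratory chain 1 was higher and 1 lower (median -0.10), and of 13 mitochondrial genes 0 were higher and 1 lower (median -0.08). The later granule neurons had a median of 2.78% mitochondrial UMIs in the mutant and 3.20% in the control library.

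**Figure D5:**
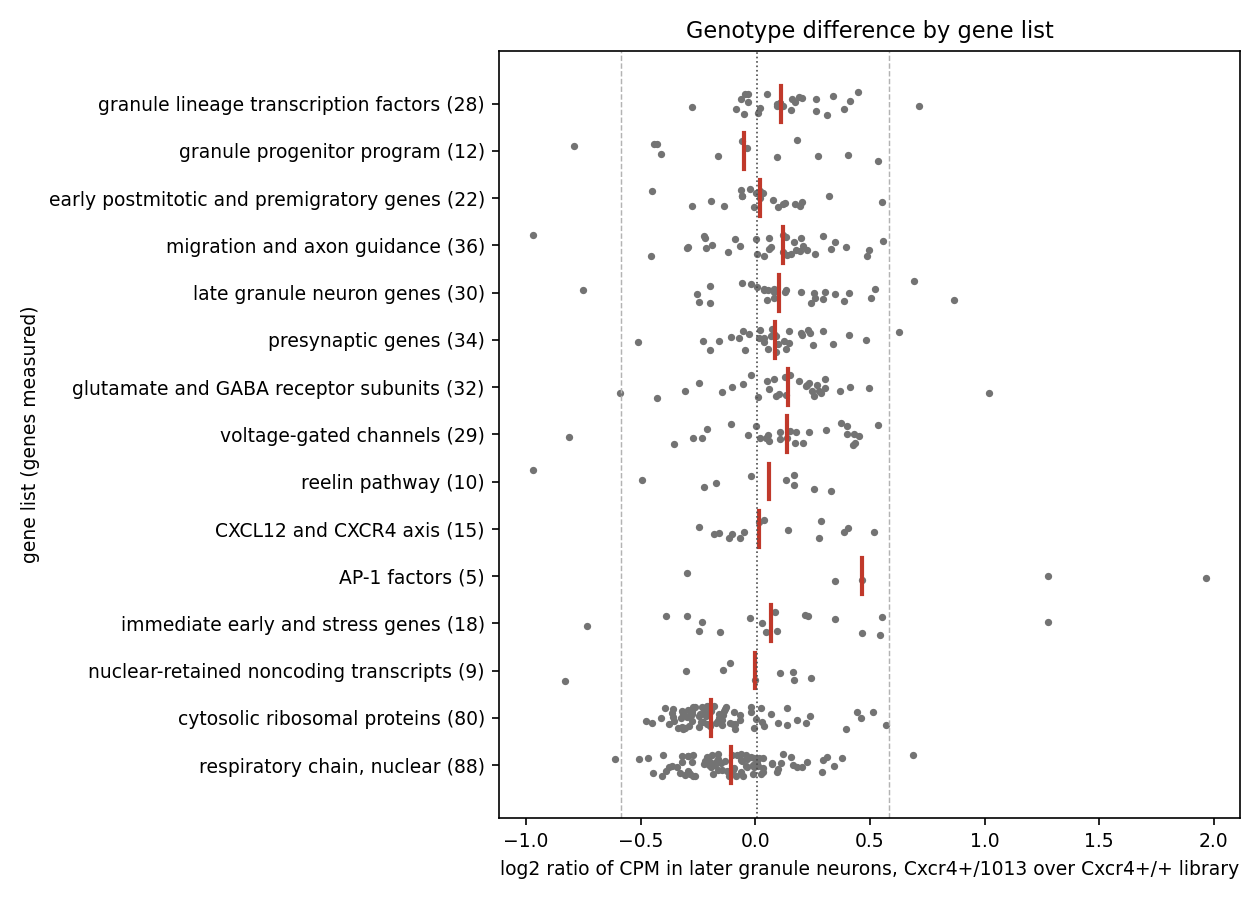
Log2 ratio of CPM in later granule neurons, mutant over control library (x axis), for each measured gene (grey points) of 15 gene lists (y axis), with the list median in red, dashed lines at 1.5-fold and a dotted line at the median of all genes. List medians lie between -0.19 for ribosomal proteins and 0.47 for AP-1 factors, and Jund stands alone at 1.97.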

How the data were processed

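Lobules III and IV of mouse cerebellum at postnatal day 1 were dissociated with papain and made into 10X Genomics 3' v3.1 libraries, 1 per genotype, per the labels' protocols. Per the submitters' processing notes, the build was mm10 and the tools were Cell Ranger 7.2, which the file headers also name, and bcl2fastq 2.20.0.4222. The sources used here do not say whether intronic reads were counted. The authors deposited raw UMI counts per gene and barcode, not normalised, and no deposited barcode had fewer than 500 UMIs.

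Barcodes were selected by the rule given above and their counts summed per population and library. CPM, ratios and exact 95% intervals (conditional binomial for ratios, Clopper-Pearson for shares) were computed in Python 3.11.15 with numpy 2.4.6 and scipy 1.17.1. Intervals cover counting error only, as do floors, set at 3 counts for a count of 0. Genes with 50 or more UMIs were counted as higher or lower at 1.5-fold, a rule of size and not a test. Named genes were the 10 higher and 10 lower in each comparison whose interval bound nearest to a ratio of 1 lay farthest from it, the 10 most variable at 5000 UMIs per barcode, and genes of fixed lists. Genes of the rule, predicted and sex-linked genes, genes for mitochondrial transcripts, ribosomal proteins and haemoglobins, and genes with over 25% of their UMIs in 1 barcode were left out of the ranked sets; between genotypes that limit was applied in the library with the higher level. The ranges of Dcc and Trpm3 UMIs were set after their values were seen. Doublets were scored with Scrublet in scanpy 1.11.5, taking 0.8% per 1000 barcodes, which marked 7.64% of mutant and 7.67% of control barcodes; they were kept, and their removal was an alternative. Other alternatives were TMM factors (edgeR 4.0.16) and DESeq2 1.42.0 size factors in R 4.3.3, other limits of the rule and the filters, thinning, and each sex alone. The ratio and thinning steps were tested on simulated data. The members and gene lists were chosen with earlier results of these data known. The listed names Tag1, Corl2 and Ddit3 were not matched by symbol.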

Additional observations from a re-analysis of the deposited data

Results flagged for a closer look

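The share of later granule neurons among granule lineage barcodes differed in sign between the sexes, mutant minus control: 0.129 percentage points among male barcodes and -0.0858 among female barcodes. Both values are small against the counting interval of the pooled difference, -2.18 to 2.78, and the difference between the sexes was not tested.

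For 3 genes lower in the mutant later granule neurons the genotype difference lay on the other side of 0 in Cntn2-positive barcodes. Snhg20 had a log2 ratio of -1.25 in later granule neurons and 0.26 in Cntn2-positive barcodes. LTO1 had -1.25 and 0.28, and Slf1 -0.76 and 0.18. None of these differences between populations was tested.

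Among barcodes outside the filter on genes and mitochondrial UMIs, which no comparison used, 10 of 1357 in the mutant library (0.737%, 0.354% to 1.35%) and 8 of 1233 in the control library (0.649%, 0.281% to 1.27%) met the gene part of the rule.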

How the results depend on the processing

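Over the 10 other settings that bear on it (of 15), the share of later granule neurons among all barcodes kept its direction, between 0.0110 and 0.564 points; 2 further settings, chosen after seeing the data, leave out some of these barcodes and gave no share. Their share of the granule lineage (0.319 points, mutant minus control) was -0.0533 with at most 5% mitochondrial UMIs, -0.474 with at least 5000 UMIs, -1.12 with Neurod1 from 1 UMI and -0.0858 among female barcodes. Of the 344 higher and 244 lower genes, 119 and 38 were shared after thinning before the rule, 86 and 32 among female and 93 and 29 among male barcodes. Genes higher in the mutant library (344) were 613 with Neurod1 from 1 UMI. With gene minimums of 20 and 100 UMIs they were 753 and 138, and genes lower in the mutant library (244) were 671 and 59, while genes higher than in Cntn2-positive barcodes (367) were 598 and 244. The genes higher and lower than in Cntn2-positive barcodes (367 and 240) were 242 and 123 after thinning to 5000 UMIs before the rule, which took in 303 mutant and 242 control barcodes, and 163 and 156 among male barcodes. Without the barcodes with 20 or more Dcc UMIs, an alternative chosen after seeing the data, 395 genes were lower. Mgat4c (-2.91) turned to 0.71 after thinning. The fewer genes counted with a minimum of 100 UMIs, and the fewer barcodes of 1 sex, follow from those alternatives' construction; for the others the cause was not tested. Of the values for single genes and lists, 1095 stayed close to the main value (single genes inside their counting interval, list medians within 0.1), 145 moved further and 1 reversed. Some settings could not move the genotype ratio of a single gene. At least 1000 genes per barcode kept the same 139 and 112 barcodes, and a gene minimum leaves each ratio as it was. The tally is therefore not a measure of stability. No paired analysis was possible because each genotype had 1 library and no result came from a test. Depth limits genes under about 50 UMIs over both libraries, and leaving out a replicate was not possible with 1 library per genotype.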
